A study of Mus musculus with 6 samples.

Results

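The genes described here are 10 genes, called contractile genes below, several of which are best known from smooth muscle: Acta2, Actg2, Tagln, Tagln2, Cnn1, Cnn2, Myl9, Tpm1, Tpm2 and Thbs1. Thbs1 is part of the set but encodes a secreted matrix glycoprotein. A gene was found by its exact symbol in the platform annotation, and all 10 were found, with 1 probe set each, among 19938 genes. The set was chosen by its log2 values with siRNA 1, where some of the genes read lower than in control cells, so every siRNA 1 value of these genes is a description and is given without a test.

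The study lowered p/CIP, the nuclear receptor coactivator encoded by Ncoa3, in E14 mouse embryonic stem cells and profiled their RNA on 6 one-colour expression arrays. There were 3 groups of 2 arrays: cells transfected with p/CIP siRNA 1, cells transfected with p/CIP siRNA 2, and control cells given a pool of non-specific siRNAs, with all cells grown as adherent cultures. The labels give no time after transfection and do not tie a replicate to a culture of its own. The p-values therefore reflect the spread among arrays alone, and that spread may be technical. All samples came from 1 cell line.

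Smooth muscle alpha-actin (Acta2) and gamma-actin (Actg2) build the thin filaments of contractile cells. Tropomyosins (Tpm1, Tpm2), calponins (Cnn1, Cnn2) and transgelins (Tagln, Tagln2) bind along those filaments, and Myl9 is the regulatory light chain through which myosin is switched on. Thbs1 encodes thrombospondin 1, a secreted matrix glycoprotein that can activate latent TGF-beta. Many of these genes are targets of serum response factor (SRF), which binds a DNA element called the CArG box and is joined by cofactors of the myocardin family when actin monomers become scarce. Myofibroblasts and spreading cells in culture make several of them as well, so their RNA is not by itself a mark of smooth muscle.

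Promoter windows were searched for CArG boxes on both strands, since many of these genes are known targets of SRF. RefSeq's table for GRCm38.p6, which covers 250 bases before each start and 50 after it, held 7 of the 10 genes, and no window for Actg2, Tagln or Thbs1 was used. A CArG box without departure was present in 2 of the 7 windows (Cnn2 and Myl9), and in 1.63% of all 32851 windows. With up to 1 departing base it was present in 4 of the 7 (Acta2 and Tpm1 as well), and in 21.1% of all windows. The letters GGAATG, read on both strands, which TEAD factors bind, were present in 3 of the 7 (Acta2, Tagln2 and Tpm1) and in 14.7% of all windows. Acta2 is shown as the gene with the widest range over the arrays, Cnn2 and Myl9 for their CArG boxes, and Tagln2 as the gene that varied least. Capitals mark each match to the CArG box with up to 1 departing base, and a match is a description of letters, not evidence of binding.
Acta2, chr19:34255324-34255623, minus strand: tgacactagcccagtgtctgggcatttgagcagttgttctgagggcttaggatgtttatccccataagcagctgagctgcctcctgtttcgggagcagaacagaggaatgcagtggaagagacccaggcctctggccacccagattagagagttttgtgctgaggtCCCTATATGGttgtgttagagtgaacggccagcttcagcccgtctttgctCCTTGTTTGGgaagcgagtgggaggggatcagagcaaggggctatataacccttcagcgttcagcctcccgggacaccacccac
Cnn2, chr10:79988350-79988649, plus strand: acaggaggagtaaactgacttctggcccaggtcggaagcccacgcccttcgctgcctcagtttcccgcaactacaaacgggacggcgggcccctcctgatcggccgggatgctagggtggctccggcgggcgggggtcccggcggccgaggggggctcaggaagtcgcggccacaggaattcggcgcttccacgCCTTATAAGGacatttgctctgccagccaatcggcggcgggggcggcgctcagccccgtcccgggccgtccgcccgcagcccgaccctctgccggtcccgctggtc
Myl9, chr2:156775214-156775513, plus strand: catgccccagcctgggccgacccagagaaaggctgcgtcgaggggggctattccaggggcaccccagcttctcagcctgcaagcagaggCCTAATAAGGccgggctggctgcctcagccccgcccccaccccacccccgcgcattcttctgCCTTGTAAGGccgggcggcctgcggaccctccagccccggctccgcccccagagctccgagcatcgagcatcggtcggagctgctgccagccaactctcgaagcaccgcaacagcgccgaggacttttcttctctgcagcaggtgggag
Tagln2, chr1:172499996-172500295, plus strand: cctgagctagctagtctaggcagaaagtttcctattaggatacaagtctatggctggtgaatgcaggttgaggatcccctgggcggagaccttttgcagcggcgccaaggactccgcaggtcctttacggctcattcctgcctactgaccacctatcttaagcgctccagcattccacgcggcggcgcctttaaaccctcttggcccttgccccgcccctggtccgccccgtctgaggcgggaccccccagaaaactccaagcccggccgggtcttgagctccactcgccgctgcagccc
In the Acta2 window the matches began at positions 167 and 217, counted from 1 at the 5′ end, and both departed from the box by 1 base. In the Cnn2 window a full match began at position 195. In the Myl9 window a full match began at position 90 and a match with 1 departing base at position 152.

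The deposited values were log2 expression values, with a median gene level of 7.81, and a difference of 1 on this scale is a doubling of signal. Ncoa3 read 10.71 and 10.93 with siRNA 1, 10.71 and 10.92 with siRNA 2, and 12.33 and 12.28 in control cells, so its RNA was lower on all 4 knockdown arrays (log2 change -1.49 with either siRNA, limma adjusted p = 0.0452 for siRNA 1 and 0.0742 for siRNA 2). Array siRNA 1 replicate 2 stood apart, with an interquartile range over genes of 3.13 against 3.33 to 3.45 on the other 5. On the labelled cell type, 14 of 15 naive pluripotency genes read above the median gene level, while 11 of 15 genes of mature smooth muscle read below it, which is a coarse check because probe sets differ in brightness. Of the 10 contractile genes, 9 read above that level; Actg2 did not.

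With siRNA 1, 9 of the 10 genes had a mean below that of control cells, as did 44.5% of all genes, and Tagln2 was the exception. Acta2 lay farthest from control, at 43% of the control level, and its log2 change ranked 6 from the lowest of the 19938 genes. Thbs1, Cnn1 and Myl9 followed, while the tropomyosins and Cnn2 differed by less. With siRNA 2, 9 of the 10 genes had a mean above control, where 47.2% of all genes did, Actg2 being the exception, and none of these differences passed the test.

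Acta2 read 10.23 and 11.25 with siRNA 1, 11.92 and 12.54 with siRNA 2, and 11.75 and 12.16 in control cells (replicates 1 and 2 in each). Both siRNA 1 arrays lay below every other array, while the siRNA 2 and control arrays overlapped. The means were 10.74 ± 0.72 with siRNA 1, 12.23 ± 0.44 with siRNA 2 and 11.95 ± 0.29 in control cells (SD, n = 2 each). The log2 change with siRNA 1 was -1.22 (standard error 0.351), a 2.32-fold lower signal. That change was -0.70 without siRNA 1 replicate 1 and -1.73 without replicate 2, the array that stood apart. With siRNA 2 the change was 0.28 (standard error 0.351), and it was -0.039 without siRNA 2 replicate 2.

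Thbs1 read 10.85 and 11.42 with siRNA 1, 11.98 and 12.49 with siRNA 2, and 11.65 and 11.996 in control cells. The siRNA 1 arrays were again the lowest of the 6, by a 1.61-fold lower mean than control (log2 change -0.69, standard error 0.239). With siRNA 2 the mean was 0.41 higher than control, yet the lower siRNA 2 array lay just under the higher control array.

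**Figure D1:**
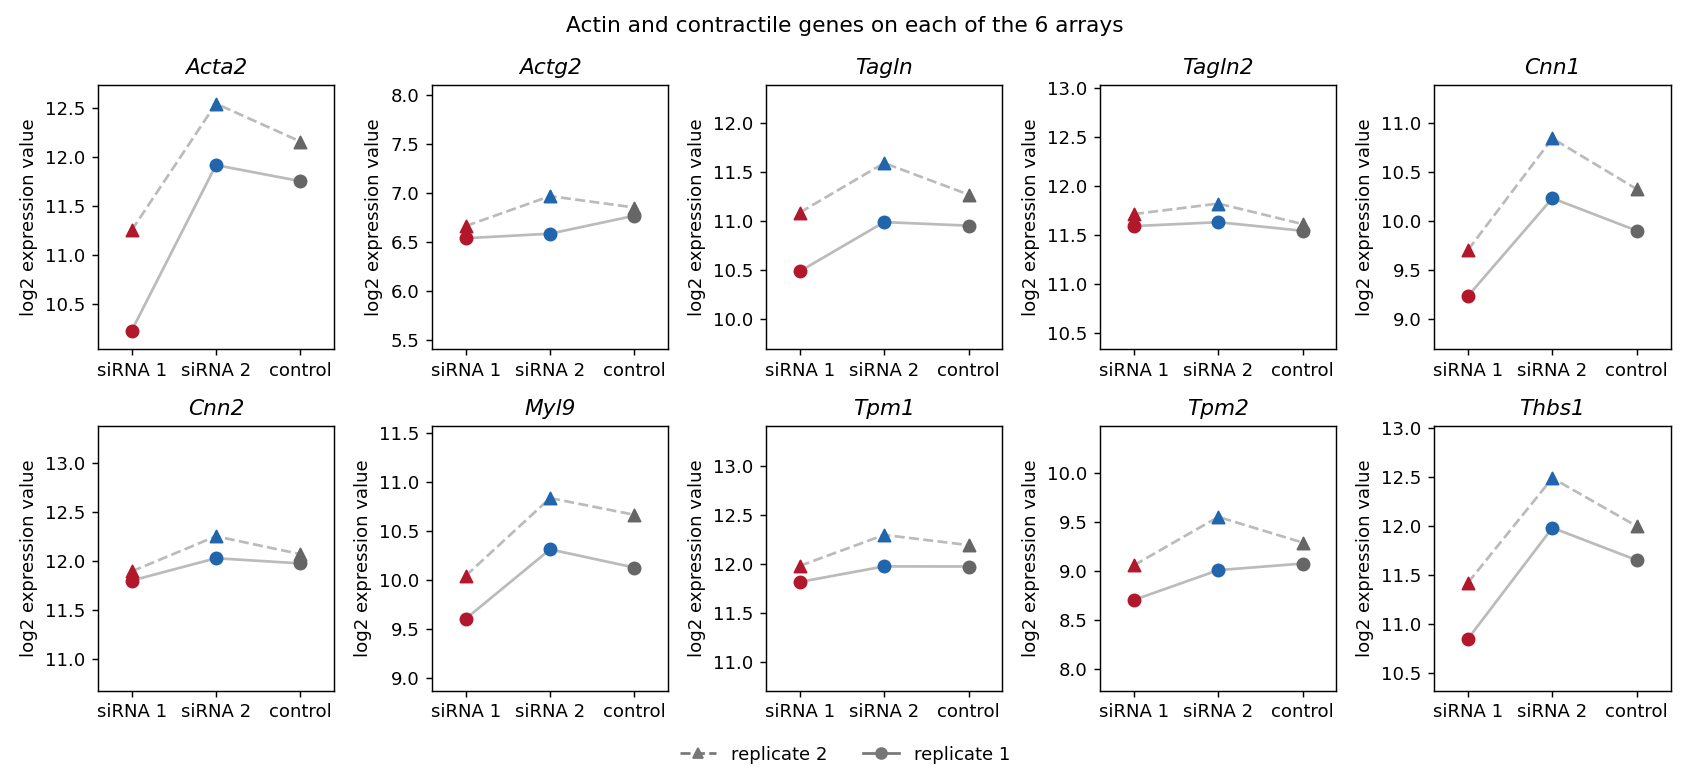
Log2 expression value (vertical axis, each panel spanning the same width of scale) of each of the 10 genes with siRNA 1, siRNA 2 and control siRNA. Triangles joined by a dashed line are the replicate 2 arrays and circles joined by a solid line the replicate 1 arrays. The triangle lies above the circle in every group for all 10 genes, and Acta2 has the widest range, 2.32 on the log2 scale, while Tagln2 spans 0.28.

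Among the actin-binding proteins, Cnn1, the calponin of differentiated smooth muscle, read 9.24 and 9.71 with siRNA 1, 10.24 and 10.85 with siRNA 2, and 9.90 and 10.33 in control cells. Its siRNA 1 arrays lay below all others, with a log2 change of -0.64 (standard error 0.249). Cnn2, a calponin of many cell types, read 11.80 and 11.89 with siRNA 1, 12.03 and 12.25 with siRNA 2, and 11.98 and 12.07 in control cells. The order of the groups was that of Cnn1 over a narrower range of 0.45, with a change of -0.18 for siRNA 1.

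Tagln, which encodes SM22 alpha, an early marker of smooth muscle, read 10.48 and 11.08 with siRNA 1, 10.98 and 11.59 with siRNA 2, and 10.95 and 11.27 in control cells. Here the groups overlapped, since the higher siRNA 1 array lay above the lower control array; the log2 change was -0.32 (standard error 0.256). Tagln2, the transgelin of non-muscle cells, read 11.59 and 11.71 with siRNA 1, 11.63 and 11.82 with siRNA 2, and 11.54 and 11.61 in control cells. It was the only gene of the 10 whose siRNA 1 mean was above control, by 0.08, and the only one whose siRNA 2 arrays both lay above both control arrays, as did 16% of all genes.

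Myl9 read 9.60 and 10.04 with siRNA 1, 10.31 and 10.83 with siRNA 2, and 10.12 and 10.66 in control cells. Its siRNA 1 arrays were the lowest, with a log2 change of -0.57 (standard error 0.247), a 1.49-fold lower signal. Tpm2 read 8.70 and 9.06 with siRNA 1, 9.01 and 9.55 with siRNA 2, and 9.07 and 9.29 in control cells. The siRNA 1 arrays lay below both controls, but the higher of them nearly met the lower control array.

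Tpm1 read 11.82 and 11.98 with siRNA 1, 11.98 and 12.30 with siRNA 2, and 11.98 and 12.20 in control cells, so that its siRNA 1 and control groups met at 11.98. Actg2, the dimmest of the set, read 6.54 and 6.66 with siRNA 1, 6.59 and 6.97 with siRNA 2, and 6.77 and 6.85 in control cells. Its siRNA 1 arrays lay below both controls and its siRNA 2 arrays on both sides of them.

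In all, both siRNA 1 arrays lay below both control arrays for 7 of the 10 genes, where 20.5% of all genes did. The median log2 change of the 10 was -0.31 with siRNA 1 and 0.16 with siRNA 2, against 0.02 and -0.01 over all genes. Leaving out 1 array at a time, the siRNA 1 change ran from -0.98 to -0.40 for Thbs1, -0.88 to -0.41 for Cnn1, -0.84 to -0.30 for Myl9 and -0.62 to -0.03 for Tagln. Without siRNA 1 replicate 2, the array that stood apart, the median of the 10 was -0.55, and without siRNA 1 replicate 1 it was -0.14. Nothing is read from the siRNA 1 figures, since that comparison chose the genes; both siRNAs also share the control arrays.

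**Figure D2:**
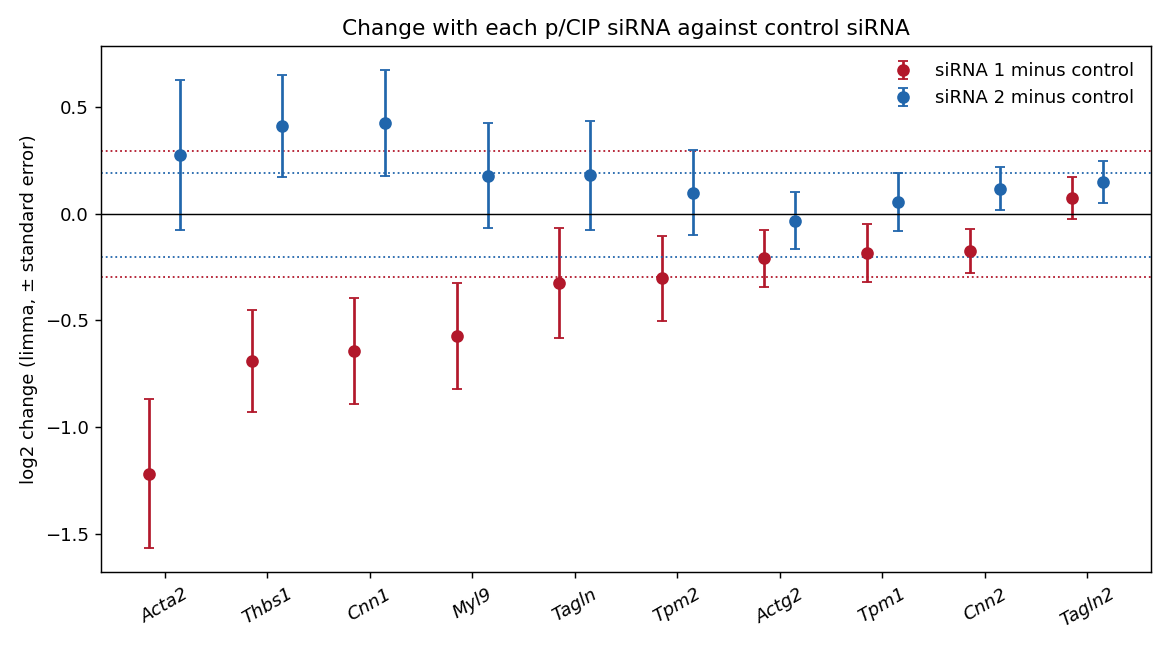
Log2 change against control siRNA (vertical axis) of each gene with siRNA 1 (red) and siRNA 2 (blue); bars are limma standard errors, and dotted lines in each colour bound the 5th to 95th percentile of all genes for that siRNA. Acta2, Thbs1, Cnn1 and Myl9 lie lowest with siRNA 1, at -1.22, -0.69, -0.64 and -0.57, and the siRNA 2 values run from -0.03 to 0.42.

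The siRNA 2 arrays took no part in choosing the genes, although the controls did, and siRNA 2 against control was therefore tested. The limma fit over all 19938 genes called 0 of the 10 at an adjusted p under 0.05, and it called 0% of all genes. At an unadjusted p under 0.05 the count without pairing was also 0 of 10, where 2.25% of all genes were higher and 2.99% lower, and an unmoderated linear model called 0. Cnn1 had the highest change, 0.42 (standard error 0.249, 95% interval -0.17 to 1.02, limma adjusted p = 0.999), and Thbs1 the next, 0.41 (95% interval -0.16 to 0.98, limma adjusted p = 0.999). The interval for Acta2 ran from -0.56 to 1.11, which leaves room for a change of either sign.

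Pairing the arrays by replicate number narrowed these intervals. Within each replicate number, 8 of the 10 genes read higher with siRNA 2 than in the control array of that number, where 27.5% of all genes did so. The exceptions were Actg2 and Tpm2, with siRNA 2 minus control at -0.18 and -0.07 in replicate 1. For Cnn1 the siRNA 2 value was 0.33 higher within replicate 1 and 0.52 higher within replicate 2, and for Thbs1 0.33 and 0.49 higher. In the fit with replicate number as a block, 3 of the 10 were higher at an unadjusted p under 0.05, where 4.54% of all genes were higher and 5.59% lower. They were Cnn1 (95% interval 0.24 to 0.61, limma adjusted p = 0.151), Thbs1 (0.22 to 0.60, limma adjusted p = 0.176) and Myl9 (0.018 to 0.34, limma adjusted p = 0.441), and the intervals of these 3 lay above 0. The interval of Acta2 in that fit, -0.077 to 0.63, did not. After adjustment over all genes 0 of the 10 passed with the block, where 0.0201% of all genes passed as higher and 0.11% as lower. The sign of other changes, and of Myl9, rested on single arrays: without siRNA 2 replicate 2, Tagln was at -0.12, Myl9 at -0.08, Tpm1 at -0.11 and Tpm2 at -0.17, and without control replicate 1 Myl9 was at -0.091, Tpm1 at -0.06 and Tpm2 at -0.01. Actg2 was at 0.16 without siRNA 2 replicate 1 and at 0.01 without control replicate 2.

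Set directly beside each other, the siRNA 2 arrays read above the siRNA 1 arrays for all 10 genes within both replicate numbers, where 26.4% of all genes did so, and for 5 of the 10 the arrays did not overlap, against 15.2% of all genes. Acta2 had the highest value of all 19938 genes in this difference, 1.49 on the log2 scale (standard error 0.351), a 2.81-fold difference. Thbs1 was 1.10, Cnn1 1.07 and Myl9 0.75 higher with siRNA 2. Because this difference holds the siRNA 1 arrays, it is a description too.

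Levels of the 10 genes varied together over the 6 arrays, and every pair of genes shares those arrays. The siRNA 1 arrays, whose values chose the genes, are among the 6, so these correlations are a description. Pearson's r between pairs of the 10 ran from 0.43 to 0.995 with a median of 0.924, and 28 of the 45 pairs were above 0.9. With Acta2, r was 0.98 for Thbs1, 0.962 for Cnn1, 0.958 for Myl9 and 0.431 for Tagln2, so Tagln2 shared the pattern least.

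Of 964 other genes that were brighter than the median gene and varied by an SD of at least 0.2, those most like the mean of the 10 over the 6 arrays were Acta1 (r = 0.996), Timp3 (0.985), Sfxn3 (0.984), Cav1 (0.982) and Rras (0.98). Acta1 encodes the alpha-actin of skeletal muscle, Timp3 an inhibitor of matrix metalloproteinases, Cav1 the coat protein of caveolae and Rras a small GTPase. The 5 nearest to Acta2 itself were Rras (0.993), Sfxn3 (0.993), Slc36a1 (0.978), Timp3 (0.975) and Acta1 (0.973). Timp3 read 8.92 and 9.46 with siRNA 1, 9.62 and 10.20 with siRNA 2, and 9.67 and 10.02 in control cells. These are the highest of many correlations over few arrays and are given as a description.

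Other genes of the same families were measured beside them and were picked out for this after their values were seen. Acta1 read 9.83 and 10.32 with siRNA 1, 10.73 and 11.42 with siRNA 2, and 10.58 and 10.99 in control cells, the same order as Acta2. Actc1, the alpha-actin of heart, read 8.64 and 8.96 with siRNA 1, 9.36 and 9.65 with siRNA 2, and 9.48 and 9.93 in control cells. Its mean lay below control with both siRNAs, but its siRNA 2 and control arrays overlapped. The muscle actins are closely alike in sequence, and how far their probe sets share signal was not tested.

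Other relatives differed from control by less than Acta1 and Actc1 did with siRNA 1. The log2 change with siRNA 1 was -0.13 for beta-actin (Actb), -0.08 for Cnn3, -0.13 for Tagln3, a neuronal form, -0.06 for Tpm3 and -0.15 for Tpm4. It was 0.00 for Myl6 and -0.12 for both Myl12a and Myl12b, the light chains of non-muscle myosin. Thbs2, a relative of Thbs1, read -0.21. None of these genes passed the test with either siRNA.

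**Figure D3:**
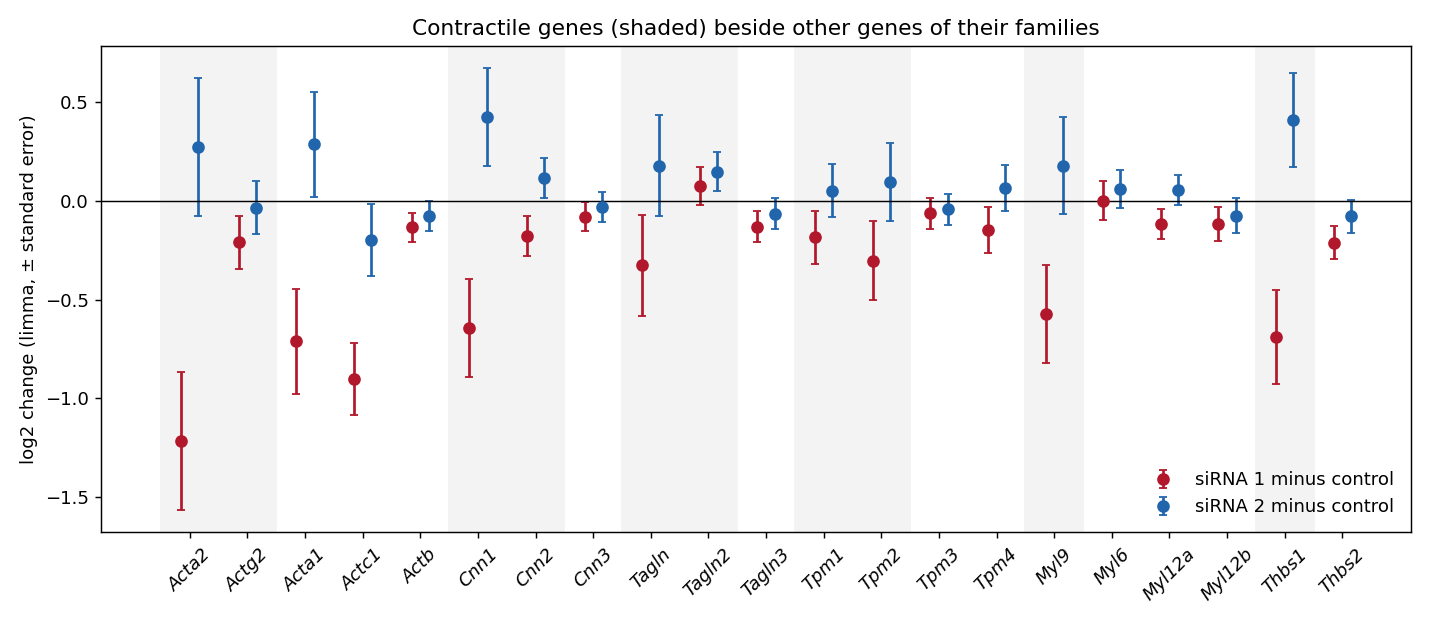
Log2 change against control siRNA (vertical axis, bars are limma standard errors) with siRNA 1 (red) and siRNA 2 (blue) for the contractile genes (shaded) and other genes of their families. Acta1 and Actc1 lie at -0.71 and -0.90 with siRNA 1, while Actb, Cnn3, Tagln3, Tpm3 and Tpm4 lie between -0.15 and -0.06.

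Genes around SRF were counted from 7 lists written from general knowledge, with earlier results of these data known. The p-values of list genes are therefore not independent support for the pattern of the 10 genes. The lists named 120 genes other than the 10, of which 117 were measured. With siRNA 1, limma called 0 of them (smallest adjusted p = 0.176), where it called 0.0702% of all genes; at an unadjusted p under 0.05, 11 were lower and 7 higher, where 6.37% of all genes were lower and 5.78% higher. The unmoderated model called 0 as well. With the replicate number as a block, which pairs the arrays, 3 fell and 1 rose: Actc1 (log2 change -0.90, limma adjusted p = 0.0183 with the block and 0.176 without), Acta1 (-0.71, 0.0334 with the block and 0.378 without) and the ligand gene Tgfb2 (-0.56, 0.0344 with the block and 0.414 without) fell, and the phosphatase gene Ptpn14 rose (0.44, 0.0473 with the block and 0.27 without). That fit called 0.963% of all genes lower and 0.246% higher. With siRNA 2, limma called 0 with or without the block (smallest adjusted p = 0.474 without it); 6 were lower and 5 higher at an unadjusted p under 0.05, where 2.99% of all genes were lower and 2.25% higher.

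Srf and its myocardin-related cofactors read close to control. Srf read 10.66 and 10.77 with siRNA 1, 10.62 and 10.79 with siRNA 2, and 10.72 and 10.75 in control cells. The myocardin-related cofactor gene Mrtfa differed by 0.13 with siRNA 1 and 0.09 with siRNA 2, and Mrtfb by 0.02 and -0.01. Of the ternary complex factors, Elk3 was lower with siRNA 2 by -0.30 (standard error 0.0802, limma adjusted p = 0.601). The median log2 change of these 8 genes was 0.03 with siRNA 1 and 0.01 with siRNA 2, and 0 passed with either.

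Of 31 cytoskeletal targets of SRF, 22 lay below control with siRNA 1 (median -0.08) and 12 with siRNA 2 (median 0.05), where 44.5% and 52.8% of all genes did. Fblim1, a filamin-binding protein of focal adhesions, was lower by -0.37 with siRNA 1 and -0.27 with siRNA 2 (limma adjusted p = 0.201 and 0.699). Pdlim5, an adaptor of the actin cytoskeleton, was higher by 0.26 and 0.43 (0.397 and 0.474). Vcl, which encodes vinculin, and Csrp2, a LIM protein, differed by -0.04 and -0.17 with siRNA 1 and by 0.24 and -0.15 with siRNA 2. The 15 genes of mature smooth muscle had medians of 0.14 with siRNA 1 and 0.05 with siRNA 2; the smooth muscle myosin gene Myh11 differed by -0.01 and -0.11, and the phospholamban gene Pln, dim on every array, by 0.40 and 0.31.

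Signalling genes that feed into these targets showed no call in the fit without the block. Of 19 genes of the YAP and TEAD pathway, 14 lay above control with each siRNA (medians 0.14 and 0.09), where 55.5% of all genes did with siRNA 1 and 47.2% with siRNA 2. Ptpn14 read 0.44 and 0.26, Tead3 0.38 and 0.37, Amotl2 0.44 and 0.29, and Tead2 -0.38 and -0.21 with siRNA 1 and siRNA 2. The pathway's best known targets, Ccn1 and Ccn2, differed by 0.29 and -0.002 with siRNA 1 and by 0.25 and 0.15 with siRNA 2.

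Of 18 TGF-beta genes, 11 lay below control with each siRNA (medians -0.08 and -0.07), where 44.5% and 52.8% of all genes did. Tgfbi, a matrix protein induced by TGF-beta, differed by -0.54 with siRNA 1 and -0.48 with siRNA 2 (limma adjusted p = 0.195 and 0.51), Tgfb1 by -0.20 and -0.10, and Smad2 by -0.21 and -0.11. Of 11 immediate early genes of SRF, 9 lay above control with siRNA 1 and 7 with siRNA 2 (medians 0.15 and 0.05). Over all genes 55.5% and 47.2% did. Fos differed by 0.27 and 0.31 and Egr1 by 0.13 and -0.10. The 2 genes of this list below control with siRNA 1 were Ier2 (-0.32, and -0.09 with siRNA 2) and Mcl1 (-0.16 and 0.05).

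The 10 genes also differed between replicate numbers, in one direction, a contrast that the choice of genes did not use. All 10 read higher on the replicate 2 array than on the replicate 1 array in each of the 3 groups, where 28.5% of all genes did. Acta2 was 0.69 higher on replicate 2 arrays (standard error 0.117, a 1.61-fold difference), Tagln 0.51 (0.0745), Cnn1 0.50 (0.0599), Myl9 0.50 (0.0534) and Thbs1 0.48 (0.0636). Tpm2 was 0.37, Tpm1 0.23, Actg2 0.20, Cnn2 0.14 and Tagln2 0.13 higher.

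For Acta2, replicate 2 exceeded replicate 1 by 1.02 with siRNA 1, 0.63 with siRNA 2 and 0.40 in control cells, and the mean difference was 0.52 without siRNA 1 replicate 2. For Myl9 these differences were 0.44, 0.52 and 0.54, so they were nearly equal in the 3 groups. In a limma fit with group and replicate number, 0 of the 10 passed an adjusted p of 0.05 (0.0955 for Cnn1, Myl9 and Thbs1, up to 0.217 for Tagln2), and 0.0251% of all genes passed. At an unadjusted p under 0.05, 8 of the 10 were higher, where 15.5% of all genes were higher; an unmoderated linear model called 0 of the 10. The calls depended on the settings: with a trend and robust option 8 of the 10 passed, where 3.79% of all genes passed as higher, and with dim genes left out 7 of 9 passed, where 3.63% did. After quantile normalization or cyclic loess, Cnn1 and Myl9 passed, where 0.115% and 0.125% of all genes did.

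**Figure D4:**
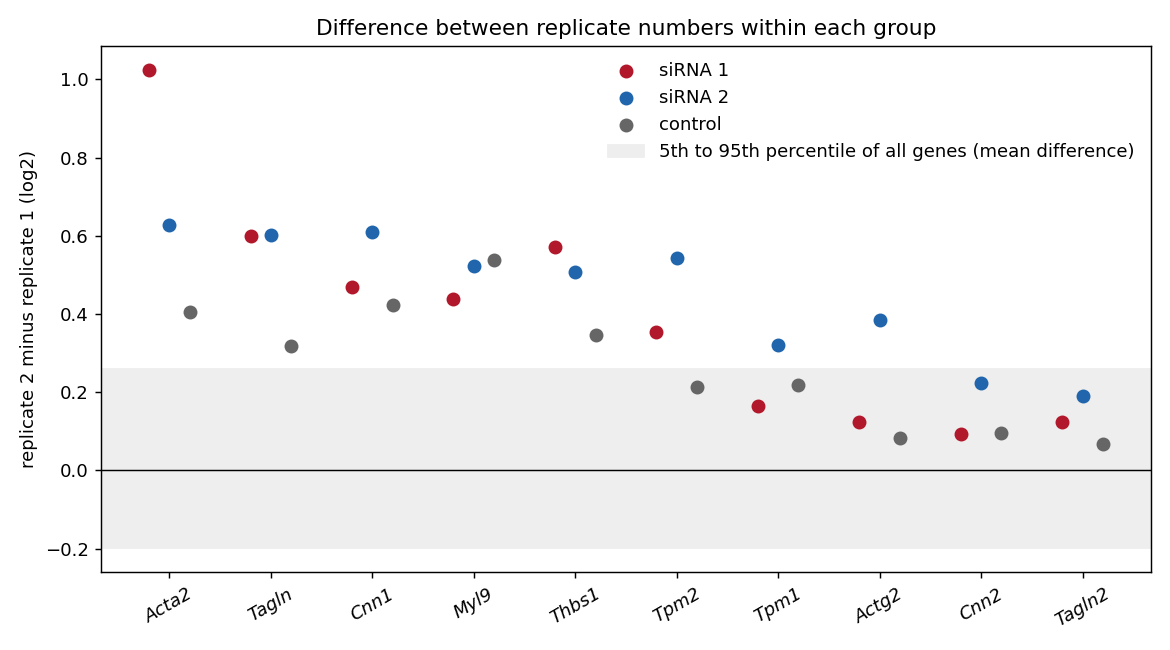
Replicate 2 minus replicate 1 (log2, vertical axis) of each gene with siRNA 1, siRNA 2 and control siRNA; the grey band is the 5th to 95th percentile over all genes of the mean difference over the 3 groups. All 30 points lie above 0, and those of Acta2, Tagln, Cnn1, Myl9 and Thbs1 lie above the band.

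Marker genes of other cell types also read differently between replicate numbers, although 0 of them passed the adjusted test. Over all genes, 28.5% were higher on the replicate 2 array in all 3 groups. Of 15 markers of extraembryonic endoderm, 13 were higher on the replicate 2 array in all 3 groups (median 0.45), and their mean level was 8.79 to 9.07 on replicate 2 arrays, against 8.37 to 8.55 on replicate 1 arrays. Sox17, Afp, Pdgfra and Amn of that list read below the median gene level. Of 15 naive pluripotency genes 0 were higher in all 3 groups (median -0.11), with mean levels of 11.40 to 11.72 on replicate 2 arrays and 11.48 to 11.86 on replicate 1 arrays. Fibroblast and feeder markers (8 of 17 higher in all 3 groups, median 0.17, 12 of the 17 dim) and mesoderm markers (6 of 12, median 0.06, 9 of the 12 dim) had smaller medians. Of the 31 cytoskeletal targets of SRF, 19 were higher in all 3 groups (median 0.14), and so were 13 of 19 YAP and TEAD genes (median 0.19). The part of these cell types in the contractile gene values was not tested, and fewer cells of a type cannot be told apart from less RNA per cell in bulk RNA.

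The same marker lists were set beside the siRNA comparisons. With siRNA 1, 14 of 15 endoderm markers lay above control (median 0.23), where 55.5% of all genes did. With siRNA 2 12 of 15 did (median 0.06), where 47.2% of all genes did. In the fit without the block, 0 endoderm markers passed the test with either siRNA. With the replicate block, Lamb1 was called higher with siRNA 1 (log2 change 0.47, limma adjusted p = 0.0439), where 0.246% of all genes were. Fibroblast and feeder markers had medians of 0.06 and 0.05, and their mean level was 7.23 to 7.43 with siRNA 1, 7.25 to 7.39 with siRNA 2 and 7.22 to 7.31 in control cells. Naive pluripotency genes had medians of -0.33 and -0.31. Of these 15, 13 lay below control with each siRNA, where 44.5% and 52.8% of all genes did. Nr0b1 passed the test with siRNA 1 (log2 change -0.91, limma adjusted p = 0.0452), where 0.0702% of all genes did. With siRNA 2, 0 of this list passed. With the replicate block, Nr0b1, Klf4, Tbx3, Esrrb and Zfp42 were called lower with siRNA 1, where 0.963% of all genes were. Nr0b1 and Klf4 were called lower with siRNA 2 in that fit, where 0.11% of all genes were. The means of Acta2, Cnn1 and Thbs1 lay below control with siRNA 1 alone.

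**Figure D5:**
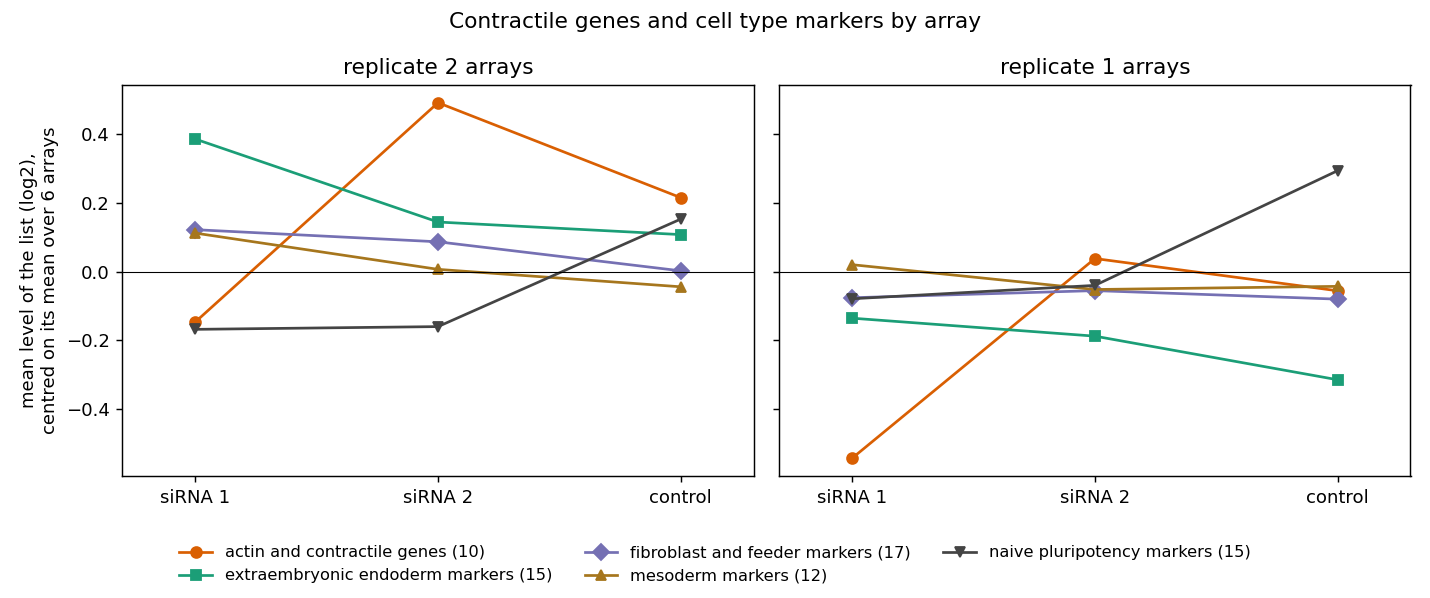
Mean log2 level of the 10 contractile genes and of 4 marker lists, each centred on its own mean over the 6 arrays (vertical axis), for the replicate 2 arrays (left) and replicate 1 arrays (right) with siRNA 1, siRNA 2 and control siRNA; numbers in brackets are genes per list. The contractile genes are lowest with siRNA 1 in both replicates, at -0.15 and -0.54, while naive pluripotency markers are highest in control cells.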

How the data were processed

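RNA from 6 samples of E14 stem cells was measured on expression arrays. The deposited log2 values, 1 for each of 35556 probe sets and array, were used as given; their base was inferred from the range of 2.69 to 14.6. Per the submitters' processing notes Partek was used, and nothing seen here gives its version or how background, probe summary and normalization were handled. No depth or detection call exists, so the number of arrays limits the precision. GEO's platform annotation gave 1 symbol to 21789 probe sets, several to 1621 (left unnamed) and did not list 12146; the brightest probe set stood for each of the 999 genes with several, leaving 19938 genes. None of the 10 symbols differed from RefSeq's.

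All 3 groups were fitted with limma 3.58.1 in R 4.3.3 (lmFit, eBayes), two-sided, with Benjamini-Hochberg adjustment over 19938 genes and a threshold of 0.05; every adjusted p is limma's. The replicate contrast came from a fit of group and replicate number. The script was tested on simulated data. Promoter windows came from RefSeq (GRCm38.p6), and figures from matplotlib 3.10.9.

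Deviations of same-numbered arrays from their group means correlated across genes at 0.464 (siRNA 1 and control), 0.407 (siRNA 2 and control) and 0.461 (siRNA 2 and siRNA 1), and on that basis replicate numbers were treated as pairs; this rests on the data, not the labels.

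The 10 genes and all lists were chosen with earlier results of these data known. One of the lists is counted in the totals and is not reported here by itself. Genes were named by rule: the 10; Ncoa3; up to 4 genes of smallest p per list and siRNA; and the 5 genes most like Acta2 and the mean of the 10, passing over predicted and olfactory genes. Genes named from the lists outside this rule, and the family members, were chosen after their values were seen. Alternatives covered normalization, moderation, filters, blocks and each array left out.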

Additional observations from a re-analysis of the deposited data

Results flagged for a closer look

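Within both replicate numbers, siRNA 1 lay below control and siRNA 2 above it for Acta2, Thbs1, Cnn1, Myl9, Tagln, Cnn2 and Tpm1, opposite directions against control arrays that both comparisons share. Of all genes, 27.5% lay above control with siRNA 2 within both replicate numbers, and 26.4% were higher with siRNA 2 than with siRNA 1. The order siRNA 1, control, siRNA 2 requires both of these, so its own share of all genes is at most 26.4%. The siRNA 2 minus siRNA 1 difference on the log2 scale was 1.49 for Acta2, 1.10 for Thbs1, 1.07 for Cnn1, 0.75 for Myl9, 0.50 for Tagln, 0.29 for Cnn2 and 0.24 for Tpm1. The difference was not tested, because siRNA 1 values chose the genes. For Tpm1 within replicate 1, siRNA 2 exceeded control by only 0.0012.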

How the results depend on the processing

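The counts of 0 of the 10 genes called with siRNA 2 held under all 17 alternatives run, and the replicate block left them at 0 (Cnn1 had limma adjusted p = 0.151 and Thbs1 0.176 in that fit, and 3 of the 10 had an unadjusted p under 0.05). For replicate 2 against replicate 1, the count of 0 higher genes became 2 after quantile normalization and 2 after cyclic loess (Cnn1 and Myl9 in each), 7 with dim genes left out and 8 with trend and robust moderation; it stayed 0 without any 1 array. All 10 kept a positive replicate difference under every alternative, from 0.52 to 0.83 for Acta2. Pathway genes called with siRNA 1 became 3 that fell and 1 that rose with the replicate block, and 1 that fell with trend and robust moderation. Leaving out 1 array turned the sign of some siRNA 2 changes, all uncalled: they ran from -0.039 to 0.59 for Acta2, -0.23 to 0.16 for Actg2, -0.12 to 0.48 for Tagln, -0.091 to 0.45 for Myl9, -0.11 to 0.21 for Tpm1 and -0.17 to 0.37 for Tpm2. The median siRNA 1 change of the 10 ran from -0.55 (without siRNA 1 replicate 2) to -0.14 (without siRNA 1 replicate 1), and from -0.33 to -0.29 under the other alternatives; the median siRNA 2 minus siRNA 1 difference ran from 0.19 (without siRNA 2 replicate 2) to 0.74 (without siRNA 2 replicate 1). The range of the siRNA 2 minus siRNA 1 difference, the counts over all genes and the paired intervals were added after the data were seen. Over all genes, calls ran from 0 to 248 lower and 0 to 189 higher with siRNA 1 (14 and 0 as reported), from 0 to 22 and 0 to 4 with siRNA 2 (0 and 0), and from 0 to 966 and 0 to 755 between replicates (0 and 5). The cause was not tested.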

Other observations

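Some genes of the SRF, YAP and TEAD lists also read higher on replicate 2 arrays; they were chosen after their values were seen, and none passed the adjusted test. Tgfb1i1, a focal adhesion cofactor of smooth muscle genes, read 9.64, 10.27 and 9.96 on the replicate 2 arrays of siRNA 1, siRNA 2 and control, against 9.06, 9.32 and 9.41 on the replicate 1 arrays (0.69 higher, limma adjusted p = 0.0955). Ankrd1, a target of YAP, was 0.59 higher (0.109), with its highest value, 8.44, on siRNA 2 replicate 2, the array on which all 10 contractile genes were highest. Crim1 was 0.55 higher (0.0955), Ccn1 0.46 (0.0955) and Csrp1 0.36 (0.108). Unlike Acta2, Csrp1 read nearly the same with siRNA 1 as in control cells (log2 change -0.00125).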
